A study of Mus musculus with 6 samples.

Results

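The AP-1 family is described here in primary mouse epidermal keratinocytes in which the microRNA miR-148a was raised. Its 9 members were taken by name: Fos, Fosb, Fosl1 and Fosl2 of the FOS subfamily, Jun, Junb and Jund of the JUN subfamily, and the related bZIP genes Atf3 and Maff. They account for 14 of the 42885 RefSeq transcripts in the authors' deposited table, and each gene was read from its row with the highest base mean, the mean normalized count over the libraries. Of the 9 members, 7 had a fold change and belong to the 11038 genes with an adjusted p, while Fosb and Jund have rows of 0 there, in the authors' deposited table. Cells received pro-miR-148a at 200 nM (3 libraries) or a control small RNA, miR-Control (3 libraries). All came from skin of wild type C57BL/6 pups at postnatal day 1 to 3, grew in medium with 0.05 mM calcium, which keeps keratinocytes little differentiated, and were collected 48 h after transfection. The labels do not say whether the libraries of a group came from separate cultures or pups, so the p-values may measure technical spread only. No value per library was used, so whether the groups overlap cannot be said for any gene, depths are unknown, and each error is the authors' standard error (SE).

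AP-1 is a pair of proteins joined through their leucine zippers, which binds short DNA elements that read TGANTCA (the TPA response element, TRE) or TGACGTCA (the cyclic AMP response element, CRE). JUN proteins pair with each other or with FOS proteins, FOS proteins need a JUN partner, ATF3 on its own acts as a repressor, and the small MAF protein MAFF lacks an activation domain. Most of these genes are immediate early genes: growth factors, wounding and stress switch them on through MAP kinases within minutes, and their short-lived messages are soon lost. In the epidermis AP-1 acts on genes of proliferation, wound repair, inflammation and cornification, and the make-up of the dimer decides which genes respond.

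The direction of the comparison had to be read from sequence, because the numerator of the deposited fold changes is not stated. The mature miR-148a-3p is shown with its seed, bases 2 to 8, in capitals, because the seed decides which messages it pairs with. The mature sequences of miR-148b-3p and miR-152-3p follow, since they are the other microRNAs among 1738 mature sequences in RefSeq (GRCm38.p6) with the same seed.
miR-148a-3p, chr6:51269829-51269850, strand -: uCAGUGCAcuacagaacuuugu
miR-148b-3p, chr15:103285185-103285206, strand +: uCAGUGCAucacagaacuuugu
miR-152-3p, chr11:96850439-96850459, strand +: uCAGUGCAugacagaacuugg

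The seed pairs with TGCACTG in a 3' untranslated region (a 7mer-m8 site), and TGCACTGA is the stronger 8mer. MicroRNAs lower the messages they pair with. As deposited, the 433 tested genes with an 8mer had a median log2 fold change of 0.10 in the authors' deposited table, against -0.01 in the 6025 genes with no site, and the 1131 genes with a 7mer-m8 had 0.05. The table is therefore read as control over miR-148a, and its signs are turned, so that a negative log2 fold change below is lower with miR-148a. If this reading were wrong, all directions given here would turn together. The classes were not matched in length: the median 3' region had 2378 bases with an 8mer and 810.0 bases with no site.

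**Figure D1:**
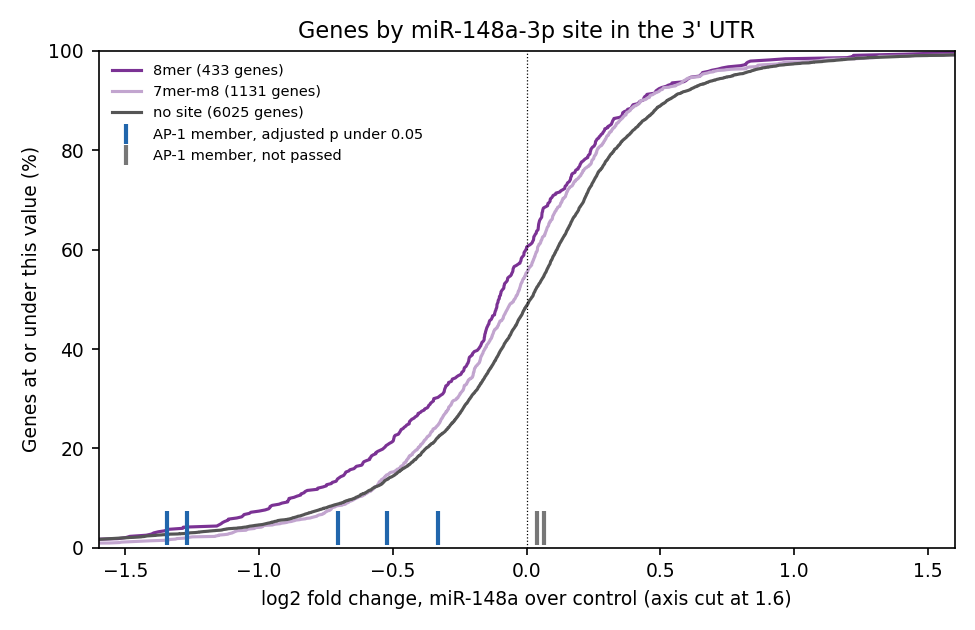
Cumulative share of genes (vertical axis, %) by log2 fold change of miR-148a over control (horizontal axis), for genes whose 3' untranslated region holds an 8mer (433), a 7mer-m8 (1131) or no site (6025). Short vertical marks near the base are the 7 AP-1 members: 5 lie at -0.33 or below, and Fosl2 and Junb lie at 0.04 and 0.06.

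None of the 5 members that were lower with miR-148a carries a site for it in its 3' untranslated region. In the longest annotated 3' regions (GENCODE M21), Fos, Fosl1, Jun, Atf3 and Maff hold no 8mer, 7mer-m8, 7mer-A1 (GCACTGA) or 6mer (GCACTG), and neither do Junb and Jund. The sites found in these 3' regions lie in Fosb and Fosl2. A site of each gene is shown because the seed could pair there, with the paired bases in capitals. The Fosb site is a 7mer-m8 at bases 2272 to 2278 of a region of 2302 bases, and the Fosl2 site is a 6mer at bases 2600 to 2605 of 4653. Fosb holds a further 6mer at bases 2240 to 2245. The search covered 3' regions only, so sites elsewhere in the messages would be missed. In Jun, the 50 bases after the annotated start hold TGCACTGA, and whether miR-148a acts there was not tested.
Fosb, chromosome 7, 7mer-m8: cttggttcTGCACTGtcgccaata
Fosl2, chromosome 5, 6mer: acagctacgGCACTGgaaagagta

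Of the 7 members with a fold change, 5 fell with miR-148a, none rose, and 2 did not pass the test at an adjusted p of 0.05 in the authors' deposited table. Across all 11038 tested genes 16.8% fell and 16.7% rose. The median log2 fold change of the 7 was -0.52, against -0.01 over all tested genes. The members fall apart by abundance: the pair with the highest base means, Fosl2 and Junb, did not pass, and the 5 that fell had lower ones. Levels are given below as group means that the base mean and the fold change of the authors' deposited table imply for groups of equal size, and they carry the error of the fold change. In bulk RNA, fewer cells that express a gene and less RNA per cell cannot be told apart.

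Jun, which encodes a partner of FOS proteins, was the most abundant member to fall. Its implied means were 6386 normalized counts with miR-148a and 10404 in control cells, from the authors' deposited table. The log2 fold change of Jun was -0.70 ± 0.08 SE (1.63-fold lower, adjusted p = 6.15e-19, NM_010591, authors' deposited table). A lower fold change was found in 8.97% of the tested genes.

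Junb, which in keratinocytes is known for restraining proliferation and inflammation, had implied means of 17018 with miR-148a and 16284 in control cells, from the authors' deposited table. Its log2 fold change was 0.06 ± 0.06 SE (95% interval -0.06 to 0.19, adjusted p = 0.502, NM_008416, authors' deposited table), so a change of more than 1.14-fold in either direction lies outside the interval. The intervals of Jun (-0.85 to -0.55) and Junb do not overlap. The difference between them was not tested, because how the estimates of 2 genes vary together is not known without values per library.

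Among the FOS genes, Fos, the classic immediate early partner of JUN, had implied means of 2039 with miR-148a and 2565 in control cells, from the authors' deposited table. Fos fell by the least of the 5 by the authors' deposited table (NM_010234, log2 fold change -0.33 ± 0.08 SE, 1.26-fold, adjusted p = 0.000158). Fosl1, which encodes FRA-1, a partner linked to migrating and transformed epithelial cells, had implied means of 173.4 with miR-148a and 249.0 in control cells, from the authors' deposited table. The authors' deposited table has it 1.44-fold lower (NM_010235, log2 fold change -0.52 ± 0.17 SE, adjusted p = 0.00801), with an interval of -0.85 to -0.19, and it is the member that no longer passes with the stricter Benjamini-Yekutieli adjustment.

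Fosl2, which encodes FRA-2, a FOS protein of differentiating keratinocytes, was the most abundant member by base mean, 19043 in the authors' deposited table, and 1.79% of the tested genes exceeded it. Its implied means were 19301 with miR-148a and 18786 in control cells, from the authors' deposited table. The log2 fold change was 0.04 ± 0.07 SE (interval -0.09 to 0.17, adjusted p = 0.738, NM_008037, authors' deposited table). The only member with a fold change and a seed match in its 3' region, a 6mer, thus did not pass.

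Atf3, a stress-induced repressor that binds AP-1 and CRE elements, had the lowest fold change of the family. Its implied means were 735.6 with miR-148a and 1868 in control cells, from the authors' deposited table. The log2 fold change of -1.34 ± 0.10 SE (2.54-fold lower, interval -1.54 to -1.15, adjusted p = 2.12e-39, NM_007498, authors' deposited table) put Atf3 at rank 260 from the lowest of 11038 genes. Maff, a small MAF protein that pairs with FOS and with NRF2 and has no activation domain, followed at rank 298. Its main transcript NM_010755 had implied means of 61.9 with miR-148a and 149.1 in control cells, from the authors' deposited table, and a log2 fold change of -1.27 ± 0.23 SE (2.41-fold lower, adjusted p = 4.02e-07).

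The 4 Maff transcripts start at different places and share exonic sequence, so their rows may share or lose reads. Each has between 154 and 299 exonic bases that lie in none of the other 3 (GENCODE M21 transcripts). All 4 had a negative log2 fold change in the authors' deposited table, at -1.27, -0.73, -1.03 and -0.47 in order of falling base mean (105.5, 31.3, 9.54 and 3.59). NM_001304832 also passed (adjusted p = 0.0291), and NM_001304831 (adjusted p = 0.0899) and NM_001304830 (adjusted p = 0.33) did not, by the authors' deposited table.

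**Figure D2:**
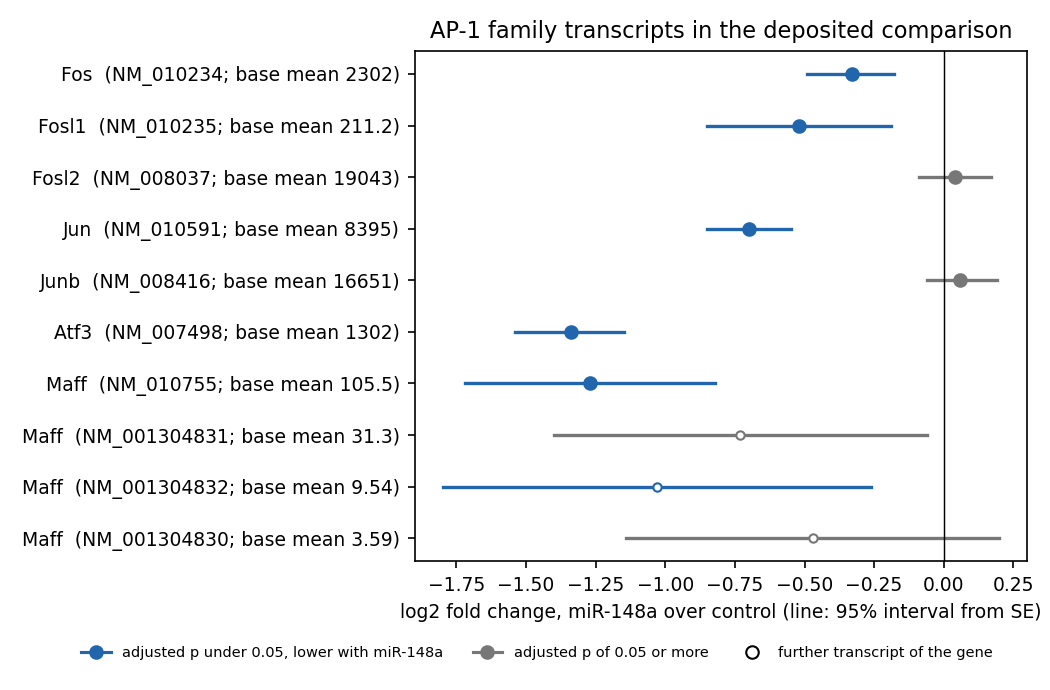
log2 fold change of miR-148a over control (horizontal axis) for the 10 AP-1 transcripts with a value; lines are 95% intervals from the authors' SE, blue passed an adjusted p of 0.05, grey did not, and open points are further transcripts of Maff. The intervals of Fos, Fosl1, Jun, Atf3 and the main Maff transcript lie below 0, and those of Fosl2 and Junb span 0.

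Fosb, an immediate early FOS gene, and Jund, a JUN gene that many resting cells express, could not be compared. Both transcripts of Fosb (NM_008036 and NM_001347586) and both of Jund (NM_010592 and NM_001286944) stand at 0 in the authors' deposited table. Both Jund accessions match the same single-exon GENCODE transcript of 1668 bases, so neither has a base of its own. Of all deposited rows, 73.9% of the transcripts of genes with 2 or more rows were listed at 0, against 34.5% of those of genes with 1 row. A 0 for Jund or Fosb is therefore not a measurement of absence.

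The order of the members by level was set per length, since longer messages collect more reads. Junb was highest, with implied means of 9407 normalized counts per kb of transcript with miR-148a and 9002 in control cells, computed from the authors' deposited table. Jun had 2003 per kb with miR-148a and 3262 in control cells, and Fosl2 had 2953 with miR-148a and 2874 in control cells, so that these neighbours stand in the other order in the 2 groups. Fos had 967.1 per kb with miR-148a and 1217 in control cells, and Atf3 had 370.8 with miR-148a and 941.6 in control cells. Fosl1 (93.0 per kb with miR-148a, 133.6 in control cells) and Maff (31.6 with miR-148a, 76.1 in control cells) had the lowest computed values in both groups. The gaps between neighbours were not tested, and the Maff level counts a single one of its transcripts. It was divided by all 1958 bases of that transcript, of which 239 lie in no other Maff transcript. If reads of shared bases were lost, the Maff level is too low, so its place as lowest is not settled.

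**Figure D3:**
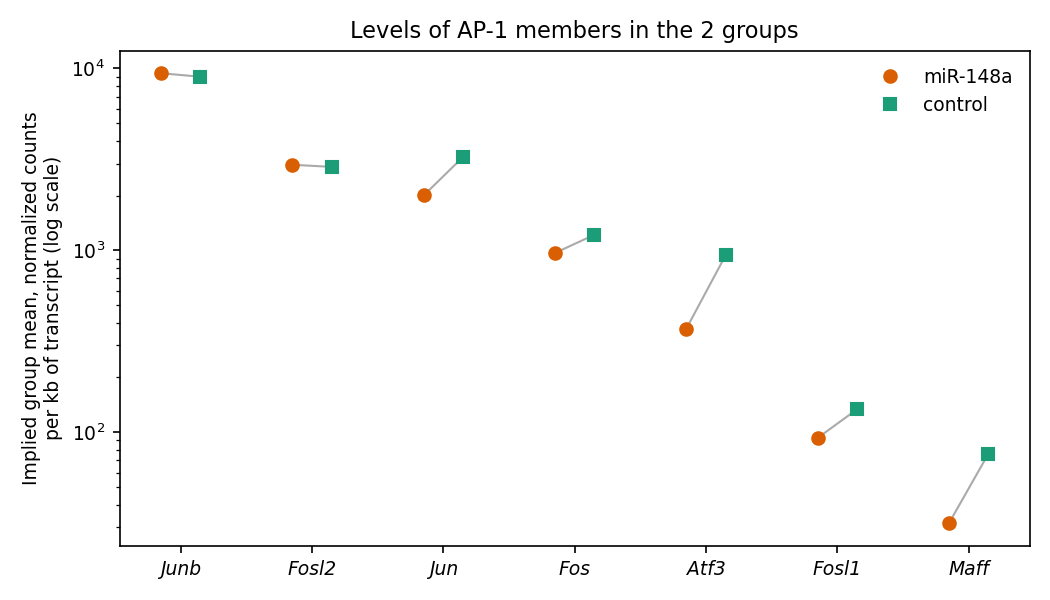
Implied group means of the 7 AP-1 members in normalized counts per kb of transcript (vertical log axis), miR-148a as circles and control as squares, joined per gene; there is no error bar because the table gives no spread per group. Jun, Fos, Atf3, Fosl1 and Maff sit lower with miR-148a, and Junb and Fosl2 are nearly level.

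The family as a pool changed little in amount and more in make-up. Summed over the 7 members, the implied mean was 45714 normalized counts with miR-148a and 50305 in control cells, 90.9% of control. Junb and Fosl2 together made up 79.4% of that sum with miR-148a and 69.7% in control cells. The 5 members that fell made up 20.6% with miR-148a and 30.3% in control cells. By subfamily, the sum of Fos, Fosl1 and Fosl2 was 21513 with miR-148a and 21600 in control cells, and that of Jun and Junb was 23404 with miR-148a and 26688 in control cells. Atf3 and Maff together were at 797.5 with miR-148a, against 2017 in control cells. These sums describe the authors' deposited table without a test, leave out Fosb and Jund, and say nothing of protein. They are not set per length, so long messages weigh more in them. The Fosl2 transcript has 6537 bases against 1809 for Junb.

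**Figure D4:**
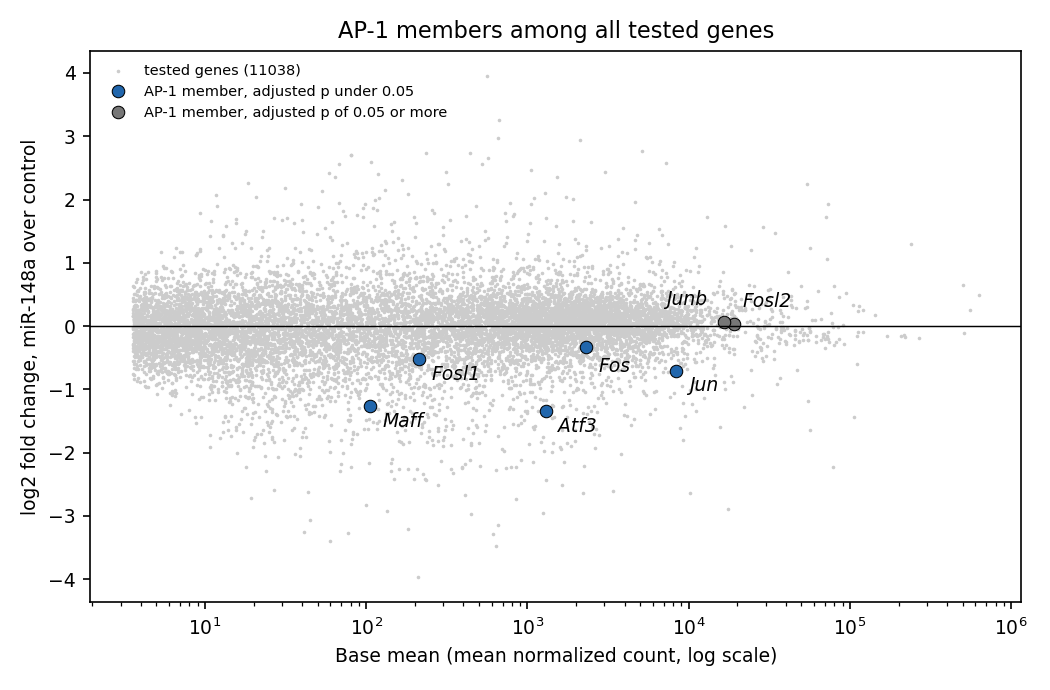
Base mean (horizontal log axis, mean normalized count) against log2 fold change of miR-148a over control (vertical axis) for the 11038 tested genes in grey, with the 7 AP-1 members in colour. Atf3 and Maff lie near the lower edge of the cloud, and Junb and Fosl2 lie on the zero line at high base means.

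What the falling members share was looked for in their promoters, from 250 bases before to 50 after the annotated start (RefSeq, GRCm38.p6). Windows of 8 of the 9 members, 10 in all, were searched; Fosl1 had no entry. The shorter form TGACGT, read on both strands, occurs in Fos at base -66, in Atf3 at base -8, and in the Maff window at the start of NM_010755, where it is part of a full CRE at base -29. It occurs in 12.4% of the tested genes with a window, and the full CRE in 3.41%. Jun does not hold TGACGT but TGACATCA at base -45, a form of the element known in the human JUN promoter. This form, searched as TGACNTCA, which also takes in the full CRE, was chosen after the sequences were seen, and it occurs in 8.23% of those genes. A further Maff window also holds TGACATCA at base -45, and the last Maff window holds neither element. Neither element occurs in the windows of Junb, Fosl2, Fosb and Jund, though the annotated starts in the windows of Fosl2 and Jund lie 671 and 1210 bases away from the start of the transcript matched to their rows. No window of the family holds a TRE or a CArG box, the element of serum response factor, which occur in 6.65% and 1.68% of the genes. Bases more than 250 before the start were not searched, so an element further out, in Fos or another member, would be missed. The 4 promoters are shown with these elements in capitals, because they belong to members that fell.
Fos, chr12:85473640-85473939, strand +: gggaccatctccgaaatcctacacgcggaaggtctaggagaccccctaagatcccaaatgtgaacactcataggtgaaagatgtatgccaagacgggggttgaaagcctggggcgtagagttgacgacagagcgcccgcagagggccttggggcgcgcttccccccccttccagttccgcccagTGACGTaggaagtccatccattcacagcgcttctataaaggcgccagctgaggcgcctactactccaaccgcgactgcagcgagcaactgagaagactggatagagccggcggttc
Jun, chr4:95052173-95052472, strand -: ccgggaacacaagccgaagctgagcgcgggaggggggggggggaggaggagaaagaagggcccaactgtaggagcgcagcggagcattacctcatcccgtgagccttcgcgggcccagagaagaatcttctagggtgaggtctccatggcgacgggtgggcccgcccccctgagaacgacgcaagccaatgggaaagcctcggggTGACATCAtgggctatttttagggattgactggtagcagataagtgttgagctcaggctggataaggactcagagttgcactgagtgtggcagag
Atf3, chr1:191183284-191183583, strand -: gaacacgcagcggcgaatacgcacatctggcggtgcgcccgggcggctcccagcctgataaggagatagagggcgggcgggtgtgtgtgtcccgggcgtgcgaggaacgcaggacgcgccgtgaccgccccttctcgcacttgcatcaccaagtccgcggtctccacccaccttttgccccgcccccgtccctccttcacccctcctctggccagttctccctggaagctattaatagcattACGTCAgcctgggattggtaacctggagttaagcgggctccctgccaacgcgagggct
Maff, chr15:79347270-79347569, strand +: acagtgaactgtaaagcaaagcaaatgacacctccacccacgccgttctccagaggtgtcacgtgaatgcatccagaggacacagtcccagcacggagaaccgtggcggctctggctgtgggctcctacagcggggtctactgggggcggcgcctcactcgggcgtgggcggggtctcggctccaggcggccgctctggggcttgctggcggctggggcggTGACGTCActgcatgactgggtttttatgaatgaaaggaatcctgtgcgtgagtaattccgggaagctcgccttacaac

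A match is a description and not evidence of binding. Over all genes TGACGT did not go with lower values: 15.2% of the 1056 tested genes that hold it fell, against 16.6% of the 7490 without it, by the authors' deposited table.

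The 3' regions of these genes are also known for AU-rich elements, built from the pentamer ATTTA, which speed the decay of the message. Fos has 4 such pentamers (4.91 per kb, a density above that of 94.9% of tested genes), Jun 4 (3.24 per kb), Maff 4 (3.28), Atf3 3 (2.53) and Fosl1 1 (1.57). Junb has 2 (4.12 per kb, above 91.8% of genes) and Fosl2 8 (1.72), and the median over 9882 genes was 1.18 per kb. The density did not separate the members that fell from the others.

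Relatives of AP-1 outside the family were read against the same shares of all tested genes, 16.8% that fell and 16.7% that rose. Of 20 further bZIP genes, 13 were tested, of which 3 fell, none rose and 10 did not pass (median log2 fold change -0.08), and with so few genes nothing particular to the list is read from this. By the authors' deposited table the 3 were Mafk, another small MAF gene (-0.76 ± 0.07 SE, adjusted p = 5.29e-23), and the repressors Bach1 (-0.40 ± 0.07 SE) and Bach2 (-1.50 ± 0.24 SE, base mean 119.3), which pair with small MAF proteins. The third small MAF gene, Mafg, had a log2 fold change of -0.11 ± 0.08 SE, and Nfe2l2, which encodes NRF2, had 0.09 ± 0.07 SE in the authors' deposited table. Of the 3 small MAF genes, Maff and Mafk thus fell and Mafg did not pass.

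Of 27 other immediate early genes that were tested, 7 fell, 5 rose and 15 did not pass (median log2 fold change -0.03). The share that rose is near the 16.7% of all tested genes, and the share that fell is above their 16.8%. With so few genes nothing particular to the list is read from these counts. Egr1, induced by the same signals as Fos, had a log2 fold change of 0.04 ± 0.10 SE (adjusted p = 0.807) by the authors' deposited table, and Ier2 had 0.01 ± 0.08 SE. Of those that fell, Dusp5 (2.01-fold, adjusted p = 6.5e-27) and Dusp1 (1.58-fold, adjusted p = 5.2e-14) encode phosphatases that switch off ERK and stress kinases, and Rhob (1.45-fold, adjusted p = 2.54e-13) encodes a small GTPase, by the authors' deposited table. Among those that rose, Gadd45b, a stress sensor, was 2.14-fold higher (1.10 ± 0.08 SE, adjusted p = 2.42e-40), by the authors' deposited table. The survival gene Ier3 rose 1.53-fold and the matrix gene Ccn2 1.47-fold (0.55 ± 0.23 SE, adjusted p = 0.0458), by the authors' deposited table. At an adjusted p of 0.01 Ccn2 no longer passed and 4 genes of the list rose. The count was also 4 without a filter on low values and with fold changes recentred on the median. Myc and Arc were listed at 0.

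Upstream, the MAP kinase list held 12 tested genes of 26, of which 3 fell, 2 rose and 7 did not pass (median -0.03). Here too the share that rose is near the 16.7% of all genes and the share that fell is above 16.8%. Nothing particular to the list is read from so few genes. The p38 kinases Mapk11 (-0.98 ± 0.19 SE) and Mapk13 (-0.44 ± 0.06 SE) and their substrate kinase Mapkapk2 (-0.58 ± 0.06 SE) fell in the authors' deposited table. Map3k1, which leads to the JUN kinases, rose 1.37-fold (0.45 ± 0.09 SE) in the authors' deposited table. The JUN kinase genes Mapk8, Mapk9 and Mapk10 were listed at 0. Of 7 tested factors that act on AP-1 gene promoters, Srf, serum response factor, which drives Fos through its serum response element, was 1.59-fold lower by the authors' deposited table (-0.67 ± 0.08 SE, adjusted p = 3.21e-16). The other 6 did not pass, among them the acetyltransferase Ep300 (0.18 ± 0.08 SE, adjusted p = 0.0847, authors' deposited table).

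Of 7 tested genes of AP-1 message and protein turnover, 1 fell, 2 rose and 4 did not pass (median 0.04). Zfp36l1 (-0.68 ± 0.08 SE), Zfp36l2 (0.45 ± 0.07 SE, base mean 16557) and Khsrp (0.32 ± 0.07 SE) all encode proteins that bind AU-rich elements and speed decay, and they moved to both sides in the authors' deposited table. Zfp36 itself, tristetraprolin, had -0.03 ± 0.08 SE.

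Genes known as AP-1 targets, 33 tested in 4 lists, fell more often than they rose, with 23 that fell and 3 that rose. Across all 11038 tested genes 16.8% fell and 16.7% rose, but these lists were chosen with results of these data known. Among proteases and their partners, 7 of 8 fell and 1 rose (median -1.52). In the authors' deposited table Mmp13, a collagenase whose promoter is a textbook AP-1 target, had -3.97 ± 0.23 SE, and the stromelysin Mmp3 was 6.38-fold lower (-2.67 ± 0.31 SE). Plau, the urokinase plasminogen activator, was 1.63-fold higher by the authors' deposited table (0.71 ± 0.10 SE, adjusted p = 1.66e-12). Of 11 growth factor and cytokine genes 9 fell, none rose and 2 did not pass (median -0.76), with the alarmin S100a8 (-2.64 ± 0.10 SE), the EGF receptor ligand Areg (-2.27 ± 0.13 SE) and the chemokine Ccl2 (-1.53 ± 0.22 SE) lowest in the authors' deposited table. Tgfa, another EGF receptor ligand, had 0.06 ± 0.07 SE.

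Of 7 differentiation genes 4 fell, 1 rose and 2 did not pass (median -0.60): Krt1 (-1.32 ± 0.18 SE), Lor (-1.28 ± 0.19 SE) and Krt10 (-0.88 ± 0.12 SE) fell most, and the cornified envelope gene Sprr1b rose 1.23-fold (0.30 ± 0.07 SE), in the authors' deposited table. Of 7 cell cycle and adhesion genes 3 fell, 1 rose and 3 did not pass (median 0.07). Those that did not pass, Cdkn1a, Cdkn2a and Itga3, had base means of only 23.5, 8.09 and 7.63, and the median is the value of Itga3. Among genes of this list with a base mean of at least 100, 4 were tested, of which 3 fell and 1 rose. The collagen receptor subunit Itga2 (-1.91 ± 0.10 SE), the hyaluronan receptor Cd44 (-1.12 ± 0.19 SE) and the cell cycle inhibitor Cdkn2b (-0.55 ± 0.11 SE) fell, by the authors' deposited table. The Cd44 value is that of a single transcript of its 6, at a base mean of 186.0. Cyclin D1, Ccnd1, a known target of JUN, rose 1.76-fold (0.81 ± 0.07 SE, adjusted p = 1.26e-32) by the authors' deposited table. Each of these genes has other regulators, and the lists were chosen with results of these data known, so their counts are no independent evidence on AP-1. Counted over promoters instead, 20.6% of the 568 tested genes with a TRE fell and 14.8% rose, against 16.2% and 17.3% of the 7978 without one, by the authors' deposited table.

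**Figure D5:**
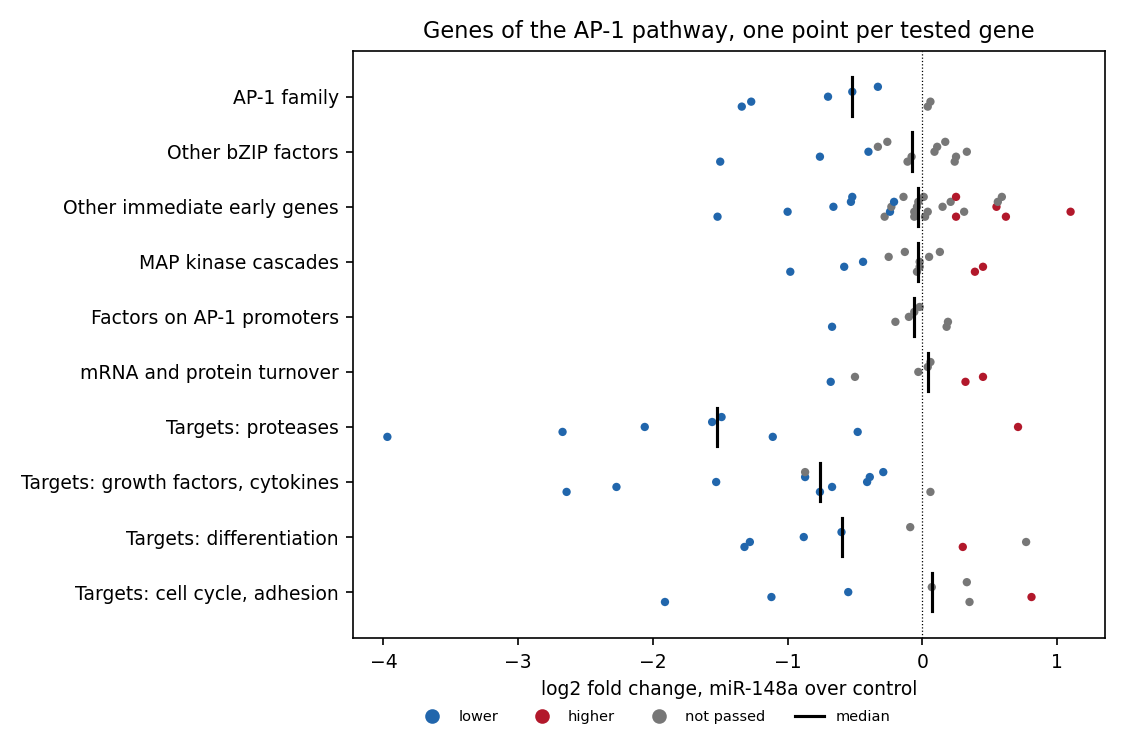
log2 fold change of miR-148a over control (horizontal axis), 1 point per tested gene, for the AP-1 family and 9 lists of its relatives, upstream genes and targets (rows); blue fell, red rose, grey did not pass an adjusted p of 0.05, and black bars are medians. The medians are -0.52 for the family, -1.52, -0.76 and -0.60 for protease, growth factor and differentiation targets, and between -0.08 and 0.07 for the other lists. The end values -0.08 and 0.07 are those of Ddit3 (base mean 14.1) and Itga3 (base mean 7.63), both weakly counted.

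Cell type markers were read beside these values. Of 4 tested keratinocyte markers 1 rose, none fell and 3 did not pass (median -0.13). Krt5, which marks basal keratinocytes, had the highest base mean of the markers (630448) and rose 1.41-fold in the authors' deposited table. Itga6 (-0.47 ± 0.37 SE, base mean 6.5) and Itgb4 (-0.36 ± 0.35 SE, base mean 4.22) did not pass, by the authors' deposited table. Krt14 stood at a base mean of only 40.3 and Trp63 was listed at 0. Krt14 has 3 rows, and transcripts of genes with 2 or more rows were listed at 0 more often (73.9% against 34.5%). As for Jund, such a low value or 0 is not read as absence. Fibroblasts also express AP-1 genes: 5 of 8 fibroblast markers fell and none rose (median -0.36), with a summed implied mean of 21257 with miR-148a and 28853 in control cells. In the authors' deposited table Thy1 (-0.85 ± 0.12 SE), Col3a1 (-0.53 ± 0.08 SE) and Col1a2 (-0.43 ± 0.09 SE) fell most, and Vim, which other cells also express, had -0.29 ± 0.09 SE. Of the 6 immune markers Lyz2, at a base mean of 43.8, was the one tested and it fell (-2.63 ± 0.34 SE), and 4, among them Ptprc, were listed at 0, by the authors' deposited table. Of 3 tested melanocyte markers Mlana fell (-0.53 ± 0.14 SE), while Pmel had -0.04 ± 0.06 SE and Dct -0.11 ± 0.06 SE in the authors' deposited table. They had a summed implied mean of 14562 with miR-148a and 15405 in control cells. Of the 3 endothelial markers Vwf was tested and fell (-0.81 ± 0.26 SE, authors' deposited table). The part of these cells in the AP-1 values was not tested.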

How the data were processed

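RNA of 6 libraries was sequenced, and the treatment labels give the groups. DESeq2 and mm9 appear among the tools and builds, per the submitters' processing notes, which state neither their roles nor versions. The authors' aligner, counter and transcript models were not given in the sources used here. The authors' table lists by RefSeq accession, per the file headers, the base mean (signal: a mean of normalized counts), a log2 fold change, its SE on the log2 scale, a Wald score, a p-value and an adjusted p. The deposited p-values were adjusted over 11757 transcripts, and this adjustment equals Benjamini-Hochberg to within a relative 0.00885. No SE exceeds 0.39 even at low base means; a fit that shrinks folds toward 0 gives such errors and understates the folds of weakly counted transcripts. The authors' table of gene ontology terms was not used.

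Accessions were paired with symbols through RefSeq (GRCm38.p6; 42739 of 42885 matched), and each gene was read from the tested transcript whose base mean was highest. Since mm9 differs from that build, the coordinates belong to the sequences shown and not to the deposited values. Implied group means solve base mean and fold change for 2 groups of 3 libraries. Intervals (95%) are the log2 fold change ± the normal quantile times the SE. No differential test was run here; an adjusted p under 0.05 in the deposited table is the test. The adjustment functions and the site search were tested on simulated data. Member proteins were not compared, as no protein sequences were used here, and with 1 comparison and no value per library no genes can be named as most alike in pattern; ranks are given in their place. Python 3.11.15, pandas 2.3.3 and scipy 1.17.1 were used.

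The members, lists, motifs and markers were chosen with earlier results of these data known. The text names all 9 members and, from each list, up to 3 genes that rose and 3 that fell with the largest log2 fold change (base mean 100 or more), or, where fewer than 2 passed, the 2 most abundant; of the genes this rule names, 2 are not reported here. Mafg, Nfe2l2, Egr1, Ier2, Zfp36, Tgfa, Vim and genes listed at 0 were added after their values were seen. So were Itga6, Itgb4, Ddit3, Cdkn1a, Cdkn2a and Itga3.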

Additional observations from a re-analysis of the deposited data

How the results depend on the processing

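The directions of Fos, Fosl1, Jun, Atf3 and Maff and their side of the threshold held when fold changes were recentred on the median of well counted transcripts, which moved every value by 0.0268. Their count of 5 also held at an adjusted p of 0.01, among genes whose base mean was 100 or more, and without a filter on low values. It was 4 with the Benjamini-Yekutieli adjustment, which Fosl1 did not pass, and 3 (Jun, Atf3 and Maff) where a fold of at least 1.5 was required beside the deposited adjusted p. With that fold requirement the count of listed genes outside the family that rose was 4, against 12 without it, and fewer genes can meet 2 criteria. That count was 11 at an adjusted p of 0.01, with the Benjamini-Yekutieli adjustment, without a filter on low values and after recentring. No member rose under any of these settings, and by the deposited p-values none was higher at an unadjusted p under 0.05. Averaged over its 4 transcripts, Maff was at -1.12. The replicates could not be left out in turn. No paired analysis was possible because the table holds no value per library. Precision was lowest for Fosl1 (SE 0.17) and Maff (SE 0.23), against an SE of 0.10 or less for the other 5 tested members.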
